A study of Rattus norvegicus with 325 samples.

Results

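The genes of MHC class I antigen processing were followed by RNA sequencing in skeletal muscles of aging rats. The animals were males of the outbred Sprague Dawley strain. The members were chosen by name as B2m, Tap1, Tap2, Tapbp, Nlrc5 and Erap1. Of these 6 genes 5 were measured, out of 17315 distinct gene symbols, and Nlrc5 was not analysed here. The series holds 325 libraries of whole muscle, 83 from the diaphragm (the main breathing muscle), 73 from the gastrocnemius, 84 from the soleus and 85 from the tibialis anterior, at 6, 9 and 12 months, at 18 and 21 months, and at 24 and 27 months of age. The labels name no treatment and no engineered allele in any group, so the groups differ by age and muscle. Each group of 1 muscle and 1 age holds 9 to 13 libraries, with 12 at both 6 and 27 months, except the gastrocnemius with 10 at 6 months and 11 at 27 months.

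MHC class I molecules show pieces of a cell's own proteins on its surface, where cytotoxic T cells read them. The proteasome cuts the proteins, a transporter carries the peptides into the endoplasmic reticulum, and a loading complex places them on a heavy chain held by β2-microglobulin. B2m encodes β2-microglobulin, the light chain without which heavy chains do not reach the surface. Tap1 and Tap2 encode the subunits of the peptide transporter, Tapbp encodes tapasin, which ties the transporter to the waiting heavy chain, and Erap1 encodes an aminopeptidase that trims peptides to length. Nlrc5 encodes a transactivator of class I genes. Healthy mature muscle fibres carry little class I protein, whereas leukocytes and endothelial cells carry much, and interferons are known to raise these genes in many cell types.

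The promoters of the members are shown because interferon and NF-κB signals are known to act on class I genes through short sequence motifs. In the RefSeq promoter table of build GRCr8, which holds 250 bases before and 50 bases after each start, 4 of the 6 members were matched. They are B2m (chr3:129549080-129549379, plus strand), Tap1 (chr20:4668494-4668793, minus strand), Tap2 (chr20:4652247-4652546, minus strand) and Tapbp (chr20:4967828-4968127, minus strand). Erap1 and Nlrc5 have no entry. The sequences are given 5′ to 3′ on the strand of the gene, with the capitals marking matches to the core of the interferon-stimulated response element (GAAA, any 2 bases, GAAA) or to a kappa B site (GGG, any 2 bases, TTTCC) on either strand.
B2m: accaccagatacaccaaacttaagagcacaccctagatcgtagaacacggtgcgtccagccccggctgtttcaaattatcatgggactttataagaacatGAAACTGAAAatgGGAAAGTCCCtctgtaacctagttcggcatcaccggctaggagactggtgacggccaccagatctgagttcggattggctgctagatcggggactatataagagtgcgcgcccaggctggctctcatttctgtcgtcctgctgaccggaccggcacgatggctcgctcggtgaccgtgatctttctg
Tap1: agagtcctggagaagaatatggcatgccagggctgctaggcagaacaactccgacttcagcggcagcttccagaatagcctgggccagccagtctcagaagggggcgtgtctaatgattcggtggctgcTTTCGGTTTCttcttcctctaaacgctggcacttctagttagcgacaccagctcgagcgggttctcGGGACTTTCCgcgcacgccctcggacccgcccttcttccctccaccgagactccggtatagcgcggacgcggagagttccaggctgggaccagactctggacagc
Tap2: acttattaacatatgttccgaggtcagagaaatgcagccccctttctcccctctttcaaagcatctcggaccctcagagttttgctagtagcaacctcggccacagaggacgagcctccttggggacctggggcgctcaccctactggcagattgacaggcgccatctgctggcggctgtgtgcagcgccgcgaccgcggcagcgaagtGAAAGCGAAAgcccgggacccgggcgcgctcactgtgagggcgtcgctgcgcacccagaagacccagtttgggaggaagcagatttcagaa
Tapbp: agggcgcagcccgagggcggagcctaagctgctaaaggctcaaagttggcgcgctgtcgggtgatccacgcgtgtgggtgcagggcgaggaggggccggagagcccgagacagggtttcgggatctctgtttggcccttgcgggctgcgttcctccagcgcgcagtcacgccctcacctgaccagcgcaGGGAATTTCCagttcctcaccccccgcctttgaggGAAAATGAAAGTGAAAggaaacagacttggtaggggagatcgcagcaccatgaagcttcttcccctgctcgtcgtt
The response element core was found in 4 of the 4 promoters, against 3.92% of the 33469 promoters in the table. In B2m it starts 150 bases before the transcription start, in Tap1 121, in Tap2 41, and in Tapbp a pair of overlapping matches starts 26 and 20 bases before it. The kappa B site was found in 3 of the 4 (B2m, Tap1 and Tapbp), against 1.53% of all promoters. Both motifs stood together in these 3 promoters, and in 23 promoters (0.0687%) in all. The gamma-activated site TTCNNNGAA was in 0 of the 4 (8.87% of all), and the CCAAT box was in 1 of the 4, that of B2m (37.5% of all). No match overlapped one of another motif in these promoters. A match shows only that the letters are there, and binding was not measured.

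**Figure D1:**
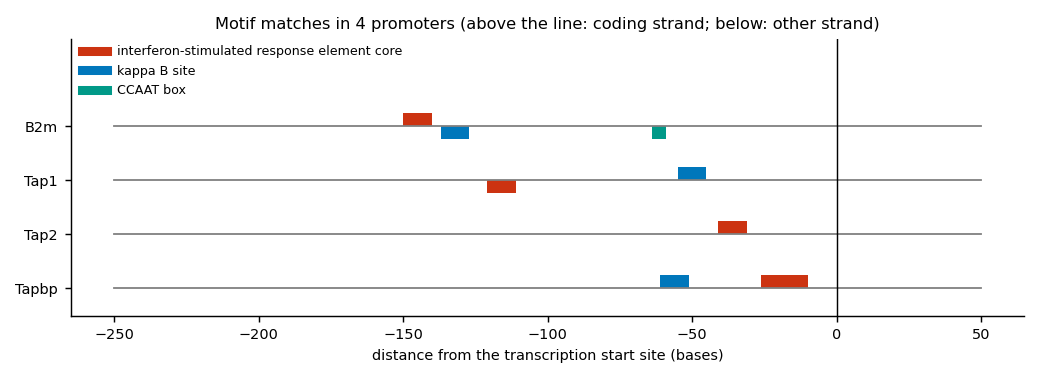
Positions of the motif matches in the promoters of B2m, Tap1, Tap2 and Tapbp, in bases from the transcription start site (vertical line). Bars above a line lie on the strand of the gene and bars below it on the other strand, and each promoter holds at least 1 response element core (red).

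The libraries held 17.56 M to 85.32 M counts (median 31.88 M), and all 325 differed in their counts. The counts behind the members ran from 4233 to 72580 for B2m and from 1052 to 5934 for Erap1, while they ran from 50 to 777 for Tap1, from 82 to 1084 for Tap2 and from 102 to 1486 for Tapbp. Levels are given as CPM, the counts divided by the library size and put on a common scale, as set over all libraries by the trimmed mean of M values, and are compared between groups for 1 gene at a time, since the gene lengths behind the counts were not used. Tap2 stands on 2 lines of each table, which held equal counts in 222 libraries and unequal ones in 103, and the lines were summed. All tissues of an age group were collected on 1 day, so the effects of age and of the collection day cannot be told apart. The gastrocnemius libraries also have a running-number series of their own in the labels, so a comparison of the gastrocnemius with another muscle cannot be told apart from that series. The labels do not name the animal behind a library, so p-values measure the spread between libraries. In whole muscle, more cells of a type and more RNA per cell cannot be told apart.

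B2m, the light chain, rose with age in the 3 hindlimb muscles and most in the gastrocnemius and tibialis anterior. A gene is said here to have risen or fallen where its change from 6 months passed 1.5-fold with an adjusted p under 0.05 (limma-voom, Benjamini-Hochberg over all genes tested in the muscle). In the tibialis anterior B2m ran from 167 to 251 CPM at 6 months (median 204, n = 12) and from 573 to 1750 at 27 months (median 1080, n = 12). In the gastrocnemius it ran from 209 to 317 at 6 months (median 244, n = 10) and from 682 to 1500 at 27 months (median 1120, n = 11). In both muscles every library of 27 months lay above every library of 6 months, a separation that 9.57% of all genes tested showed in the tibialis anterior and 6.88% in the gastrocnemius. The log2 change was 2.39 in the tibialis anterior (SE 0.14, 5.23-fold, adjusted p = 1.3e-25) and 2.21 in the gastrocnemius (SE 0.11, 4.62-fold, adjusted p = 6.6e-26). In the soleus, a slow muscle, B2m ran from 454 to 610 CPM at 6 months (median 550) and from 653 to 1040 at 27 months (median 895). These groups did not overlap either, as for 2.46% of genes in the soleus, and the log2 change was 0.69 (SE 0.07, 1.62-fold, adjusted p = 4.1e-14). In the diaphragm the range was 376 to 485 at 6 months (median 425) and 419 to 839 at 27 months (median 534), and 7 of the 12 old libraries lay above the highest young one. The log2 difference there was 0.30 (95% interval 0.14 to 0.46, adjusted p = 0.00188) and short of 1.5-fold.

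The climb of B2m was followed age by age. In the gastrocnemius its median went from 244 CPM at 6 months through 271 at 9, 319 at 12, 439 at 18 and 517 at 21 to 1130 at 24 and 1120 at 27 months. In the tibialis anterior the medians were 204, 214, 226, 318, 403, 711 and 1080 at the same ages. B2m had risen by 18 months in both, with log2 changes of 0.80 (adjusted p = 2.5e-07) in the gastrocnemius and 0.70 (adjusted p = 1.5e-05) in the tibialis anterior. At 21 months the changes were 1.15 and 1.06, and no library of that age reached down to the young range in either muscle, as for 1.42% of genes in the gastrocnemius and 0.919% in the tibialis anterior. At 24 months they were 2.07 and 1.79. In the soleus the log2 difference was 0.47 at 24 months (adjusted p = 1.4e-07), when 11 of 12 libraries lay above the highest young library, still short of 1.5-fold. When a null, a linear and a logistic model of log2 CPM on age were compared by the Bayesian information criterion, B2m was classed as late logistic, with an inflection after 21 months, in the gastrocnemius (25.75 months), soleus (25.75) and tibialis anterior (27.0), and as linear in the diaphragm. The inflection of 27.0 lies at the upper end of the ages searched. In the gastrocnemius the median rose most between 21 and 24 months, so the fitted inflection there does not mark the steepest step. Without the 12-month libraries the class in the gastrocnemius was mid logistic, with an inflection at 20.75 months.

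**Figure D2:**
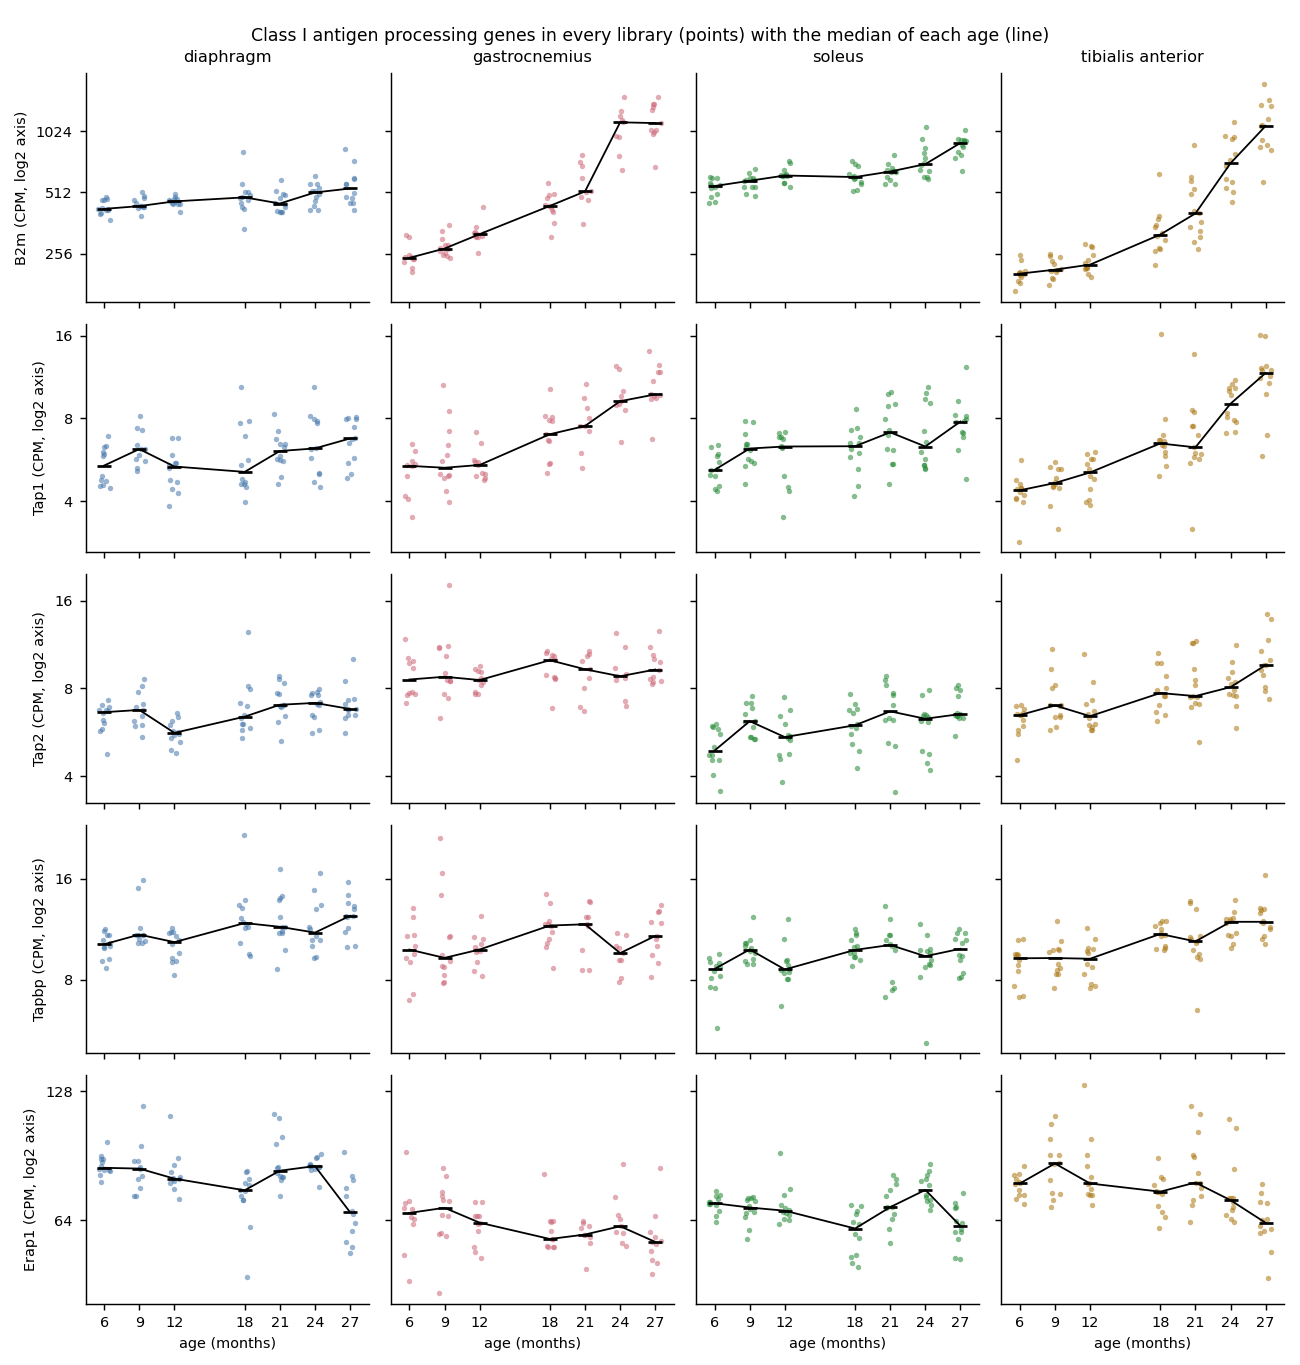
CPM (log2 axis) of B2m, Tap1, Tap2, Tapbp and Erap1 in every library (points) against age in months, with the median of each age joined by a line, 1 column for each muscle. The B2m medians climbed from 244 to 1120 in the gastrocnemius and from 204 to 1080 in the tibialis anterior between 6 and 27 months, and from 425 to 534 in the diaphragm.

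Tap1, a subunit of the peptide transporter, rose in the gastrocnemius and tibialis anterior. In the tibialis anterior it ran from 2.85 to 5.65 CPM at 6 months (median 4.39) and from 5.85 to 16.1 at 27 months (median 11.7). In the gastrocnemius it ran from 3.51 to 6.46 (median 5.38) and then from 6.74 to 14.1 (median 9.78). The young and old libraries did not overlap in either muscle, as for 9.57% of genes tested in the tibialis anterior and 6.88% in the gastrocnemius. The log2 change was 1.42 in the tibialis anterior (SE 0.14, 2.68-fold, adjusted p = 6.2e-15) and 1.03 in the gastrocnemius (SE 0.13, 2.04-fold, adjusted p = 2.5e-10). Tap1 had risen by 18 months in the tibialis anterior (0.69, adjusted p = 1.6e-04) and by 21 months in the gastrocnemius (0.63, adjusted p = 5.9e-04). Tap1 in the soleus went from 4.36 to 6.40 CPM at 6 months (median 5.20) to 4.81 to 12.3 at 27 months (median 7.8), and 10 of 12 old libraries lay above the young range. Its log2 difference of 0.56 (SE 0.13, 1.47-fold, adjusted p = 1.1e-04) was just short of 1.5-fold, and without replicate 9 of the 27-month soleus libraries it was 0.61 and past it. In the diaphragm the medians were 5.40 and 6.77 and the groups overlapped (difference 0.24, 95% interval 0.01 to 0.47, adjusted p = 0.0854). The trend over age was linear in the 3 hindlimb muscles.

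Tap2, the partner of Tap1 in the transporter, rose in the tibialis anterior. There it ran from 4.56 to 7.0 CPM at 6 months (median 6.48) and from 7.34 to 14.4 at 27 months (median 9.63). The groups did not overlap, as for 9.57% of genes tested in that muscle, and the log2 change was 0.68 (SE 0.11, 1.6-fold, adjusted p = 5.9e-08). In the soleus Tap2 ran from 3.55 to 6.06 CPM (median 4.89) and then from 5.50 to 8.21 (median 6.53), with 11 of 12 old libraries above the young range. The log2 difference of 0.46 (SE 0.11, adjusted p = 1.3e-04) was short of 1.5-fold. In the gastrocnemius, where Tap1 rose, Tap2 ran from 7.14 to 11.8 CPM (median 8.59) at 6 months and from 8.26 to 12.6 (median 9.29) at 27 months. These ranges overlapped almost wholly, and the log2 difference was 0.13 (95% interval -0.08 to 0.34, adjusted p = 0.29). In the diaphragm it was 0.14 (95% interval -0.03 to 0.32, adjusted p = 0.186). Over the libraries with equal Tap2 lines alone, a version added after the data had been seen, the differences were 0.64 in the tibialis anterior, 0.44 in the soleus, -0.01 in the gastrocnemius and -0.05 in the diaphragm.

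Tapbp, which encodes tapasin, was higher at 27 months in each muscle by less than 1.5-fold in the main fit. With total-count scaling the difference in the tibialis anterior was 0.78 and past 1.5-fold, where that scaling moved the median of all genes to 0.34. In the tibialis anterior it ran from 7.09 to 10.6 CPM at 6 months (median 9.27) and from 10.2 to 16.4 at 27 months (median 11.9), with 11 of 12 old libraries above the young range. The log2 difference was 0.46 (SE 0.075, 1.38-fold, adjusted p = 8.5e-08), and it was already 0.30 at 18 months (adjusted p = 0.00104). The differences were 0.25 in the soleus (adjusted p = 0.0088), 0.24 in the diaphragm (adjusted p = 0.0241) and 0.15 in the gastrocnemius (95% interval -0.08 to 0.38, adjusted p = 0.263). The young and old ranges overlapped in those 3 muscles. A trend over age, linear and upward, was found in the tibialis anterior and, with total-count scaling alone, in the other muscles too.

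Erap1, the trimming peptidase, lay lower at 27 than at 6 months in each muscle by less than 1.5-fold, although with total-count scaling the sign turned in the tibialis anterior (0.04) and gastrocnemius (0.12), where that scaling moved the median of all genes to 0.34 and 0.32. In the diaphragm it ran from 78.6 to 97.6 CPM at 6 months (median 84.7) and from 53.5 to 92.1 at 27 months (median 66.8). The log2 difference was -0.38 (SE 0.077, adjusted p = 2.8e-05), with 11 of 12 old libraries below the young mean. In the tibialis anterior it ran from 69.8 to 85.5 CPM (median 77.9) and then from 46.9 to 77.5 (median 63.1), and all 12 old libraries lay below the young mean (difference -0.28, SE 0.088, adjusted p = 0.00363). The soleus gave -0.15 (adjusted p = 0.0191) and the gastrocnemius -0.16 (95% interval -0.34 to 0.02, adjusted p = 0.122). Erap1 did not follow age evenly. At 18 months the log2 difference from 6 months was -0.26 in the diaphragm (adjusted p = 0.00881), with all 12 libraries below the young mean, and -0.22 in the soleus (adjusted p = 0.00162), with 11 below it. At 24 months the differences were 0.00 and 0.13. All libraries of an age share a collection day, and the part of the day in this pattern was not tested.

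**Figure D3:**
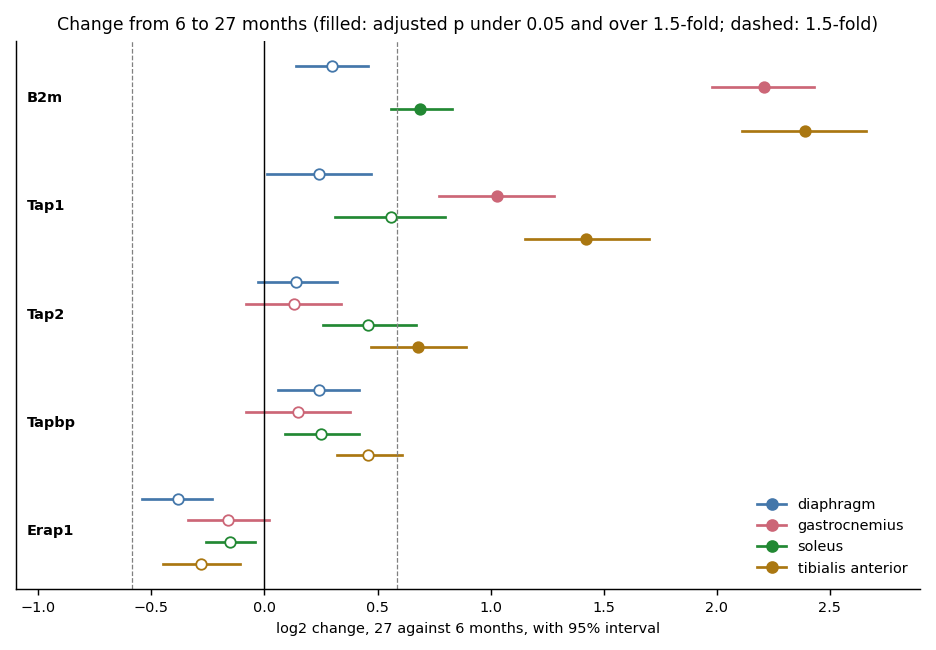
Log2 change of each member from 6 to 27 months (points) with its 95% interval (lines) in the 4 muscles, where filled points passed 1.5-fold and an adjusted p under 0.05 and dashed lines mark 1.5-fold. B2m in the gastrocnemius (2.21) and tibialis anterior (2.39) stands far to the right of B2m in the diaphragm (0.30).

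Counted together, 3 of the 5 measured members had risen at 27 months in the tibialis anterior (B2m, Tap1 and Tap2), 2 in the gastrocnemius (B2m and Tap1), 1 for the soleus (B2m) and 0 for the diaphragm. Among all genes tested, 17.2% had risen in the tibialis anterior, 15.1% in the gastrocnemius, 9.21% for the soleus and 3.27% for the diaphragm. No member had fallen, while 10.4%, 7.76%, 5.78% and 4.25% of all genes had, in the same order of muscles. In the diaphragm 4 of the 5 members had an unadjusted p under 0.05 in limma-voom and 3 an adjusted p under 0.05, none of them past 1.5-fold, and edgeR and DESeq2 also called 0. With total-count scaling, which moved the median of all genes to 0.16, the soleus had 3 calls, Tap1 and Tap2 besides B2m. The median change over the 5 members lay at 0.68 in the tibialis anterior, 0.15 in the gastrocnemius, 0.46 for the soleus and 0.24 for the diaphragm, against 0.02, 0.04, 0.02 and 0.00 over all genes tested.

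Before 27 months the members were called in the gastrocnemius and tibialis anterior alone. At 18 months 2 had risen in the tibialis anterior (4.11% of all genes) and 1 in the gastrocnemius (3.63%). At 21 months 2 had risen in each (5.5% and 4.27%), and at 24 months again 2 in each (10.9% and 11.4%). Over 9 to 24 months that made 6 calls in the tibialis anterior and 5 in the gastrocnemius, and with the mean level of 4 leukocyte genes as a covariate each of these muscles had 2. At 9 months 0 members had changed in any muscle in limma-voom, edgeR and DESeq2, against 0.00851% of all genes in the tibialis anterior, 0.143% in the gastrocnemius, 0.123% for the soleus and 0.108% for the diaphragm, and 2 members in the soleus had an unadjusted p under 0.05. At 12 months the count was again 0 by each tool, against 0.196%, 0.885%, 0.353% and 0.532%, with 1 member each in the gastrocnemius and soleus at an unadjusted p under 0.05. Outside the gastrocnemius these 12-month libraries are of another running-number series than those of 6 months, so age and series cannot be told apart. Over the 5 ages from 9 to 24 months the soleus and diaphragm had 0 calls in limma-voom, edgeR and DESeq2, although 15 of the 25 tests in the soleus and 8 of the 25 in the diaphragm had an unadjusted p under 0.05. At 18, 21 and 24 months 2.84%, 2.61% and 6.51% of all genes had changed in the soleus and 2.25%, 1.68% and 2.68% in the diaphragm. Of the 20 combinations of member and muscle, 12 followed a trend over the ages, among them 2 that went down, those of Erap1 in the diaphragm and tibialis anterior, the latter lost with total-count scaling. Over all genes tested a trend was found for 64.9% in the tibialis anterior, 55.1% in the gastrocnemius, 40.2% for the soleus and 29.6% for the diaphragm.

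Young muscles already differed in B2m. At 6 months its median was 550 CPM in the soleus, 425 in the diaphragm, 244 in the gastrocnemius and 204 in the tibialis anterior. In a fit over all libraries (limma-voom, 12784 genes tested), B2m was higher in the soleus than in the tibialis anterior (-1.4 on the log2 scale for tibialis anterior minus soleus, adjusted p = 2.5e-33) and than in the gastrocnemius (1.11, adjusted p = 2.3e-21). It was lower than in the diaphragm in the tibialis anterior (-1.09, adjusted p = 1.9e-22) and gastrocnemius (-0.79, adjusted p = 2.2e-12). The neighbours in this order differed by less than 1.5-fold, the soleus and diaphragm by 0.31 (adjusted p = 0.00476) and the tibialis anterior and gastrocnemius by -0.29 (adjusted p = 0.0107). By 27 months the order of the medians had turned, with 1120 in the gastrocnemius and 1080 in the tibialis anterior, 895 in the soleus and 534 in the diaphragm. Tap2 was the other member that differed past 1.5-fold between young muscles, being lower in the soleus than in the gastrocnemius (-0.82, adjusted p = 9.7e-12). Thus 2 members differed between soleus and gastrocnemius, 1 in each of the other pairs named, and 0 between soleus and diaphragm or tibialis anterior and gastrocnemius, with 45.4%, 42.9% (tibialis anterior and soleus), 37.3% (gastrocnemius and diaphragm), 35.1% (tibialis anterior and diaphragm), 23.9% and 17.3% of all genes. Of the members without a call, 4 had an unadjusted p under 0.05 between soleus and diaphragm and 3 between tibialis anterior and gastrocnemius, and edgeR also called 0 in both. With the leukocyte covariate, B2m differed from the diaphragm by -0.33 in the gastrocnemius and -0.47 in the tibialis anterior, no longer past 1.5-fold. Tap2 with that covariate was higher in the gastrocnemius than in the diaphragm by 0.71 and became a call.

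Whether the change from 6 to 27 months differed between muscles was tested as an interaction. The change of B2m was larger in the tibialis anterior than in the diaphragm by a log2 difference of 2.05 (SE 0.15, adjusted p = 3.0e-31) and than in the soleus by 1.71 (SE 0.15, adjusted p = 1.4e-23). It was larger in the gastrocnemius than in the diaphragm by 1.86 (SE 0.15, adjusted p = 1.7e-24), and smaller in the soleus than in the gastrocnemius (-1.52, SE 0.15, adjusted p = 6.3e-18). No difference past the threshold was seen between the tibialis anterior and gastrocnemius (0.19, 95% interval -0.11 to 0.48, adjusted p = 0.397) or between soleus and diaphragm (0.34, 95% interval 0.05 to 0.63, adjusted p = 0.0564). For Tap1 the change exceeded that of the diaphragm by 1.14 in the tibialis anterior (adjusted p = 3.2e-08) and by 0.73 in the gastrocnemius (adjusted p = 4.2e-04), and that of the soleus by 0.88 in the tibialis anterior (adjusted p = 2.7e-05). Tap2 differed by less than 1.5-fold in each pair in the main fit, the widest being 0.55 for tibialis anterior minus gastrocnemius (95% interval 0.27 to 0.84, adjusted p = 0.00164). With total-count scaling it passed the threshold for tibialis anterior minus diaphragm (0.81) and tibialis anterior minus gastrocnemius (0.59). Tapbp and Erap1 had adjusted p over 0.05 in all 6 pairs, the lowest being 0.0727 for Tapbp and 0.187 for Erap1. The members called numbered 2 for gastrocnemius and diaphragm (21.6% of all genes), 2 for tibialis anterior and diaphragm (20.3%), 2 for tibialis anterior and soleus (15.8%), 1 for soleus and gastrocnemius (14.5%), 0 for soleus and diaphragm (11.9%) and 0 for tibialis anterior and gastrocnemius (7.32%). In these last pairs 1 and 3 members had an unadjusted p under 0.05, and edgeR called 0. With the leukocyte covariate the difference of Tap1 was 0.40 for gastrocnemius minus diaphragm and 0.57 for tibialis anterior minus soleus, neither a call any more.

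Libraries of 1 muscle and age also differed from each other in these genes, and some members moved together. Each library's log2 CPM was taken relative to the mean of its age, and pairs of members were correlated over the 73 to 85 libraries of a muscle, with a permutation test of 100000 resamples within ages and adjustment over 40 tests. Of these, 24 passed by Pearson's r, all positive, and 25 by Spearman's rho, of which B2m and Tapbp in the gastrocnemius was negative (rho = -0.34, adjusted permutation p = 0.0104, r = -0.19). Tap2 and Tapbp moved together in each muscle, with r = 0.64 (rho 0.58) in the tibialis anterior, 0.73 (rho 0.66) in the gastrocnemius, 0.36 (rho 0.38) for the soleus and 0.60 (rho 0.52) for the diaphragm, and the adjusted permutation p was at most 0.00887. Without the 2 libraries farthest from the median the r values were 0.61, 0.65, 0.29 and 0.49. Tap1 and Tapbp gave r = 0.53, 0.60, 0.46 and 0.64, and Tap1 and Tap2 gave 0.50, 0.55, 0.41 and 0.53, in the same order of muscles, all of them past the threshold. B2m and Tap1 were tied most closely in the tibialis anterior (r = 0.77, rho 0.72, adjusted permutation p = 4.4e-05, and r = 0.70 without 2 libraries), while the values were 0.27, 0.34 and 0.31 in the diaphragm, gastrocnemius and soleus. Erap1 moved with Tap2 (r = 0.67) and with Tapbp (r = 0.48) in the tibialis anterior, and its r with Tap2 was 0.27 in the soleus (rho 0.20, adjusted permutation p = 0.0288 by r and 0.103 by rho, r = 0.18 without 2 libraries), 0.11 in the gastrocnemius and 0.01 in the diaphragm. With B2m the r of Erap1 was 0.47 in the diaphragm (rho 0.30, adjusted permutation p = 0.0011), 0.28 in the soleus (rho 0.25, adjusted permutation p = 0.0217), 0.27 in the gastrocnemius (rho 0.29, adjusted permutation p = 0.0288) and 0.10 in the tibialis anterior (rho 0.11, adjusted permutation p = 0.458). Whether these correlations differ between muscles was not tested, and neither were the parts of library depth and number series in them. At 9, 21 and 27 months the deepest gastrocnemius library had the highest Tapbp of its group, and at the other ages it did not. Each 21-month group but that of the gastrocnemius held a single library from another running-number series. This library was the lowest of its group in B2m, Tap1, Tap2 and Tapbp in the tibialis anterior. In the soleus it was the lowest in Tap1, Tap2, Tapbp and Erap1, and in the diaphragm in Tap2 alone.

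Single libraries stood out in several members at once. In the 18-month diaphragm replicate 11 had 10.4 CPM of Tap1, 12.5 of Tap2 and 21.6 of Tapbp, each the highest of its group, with 337 of B2m and 47.2 of Erap1, each the lowest. In the 9-month gastrocnemius replicate 7 had the highest CPM of its group in each measured member. It had 352 of B2m, 10.6 of Tap1, 18.2 of Tap2, 21.2 of Tapbp and 84.5 of Erap1, where the next library had 81.0. In the 18-month tibialis anterior replicate 11 had 627 of B2m and 16.2 of Tap1, above every other library of that group. The mean of 4 leukocyte genes in that library was also the highest of its group, by 1.63 on the log2 scale above the group mean, while it lay at 0.07 in the gastrocnemius library and at -0.25 in the diaphragm library. The gastrocnemius and diaphragm libraries were the deepest of their groups, at 76.71 M and 66.48 M counts, while the tibialis anterior library held 32.85 M. The parts of leukocytes and of depth in these libraries were not tested.

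**Figure D4:**
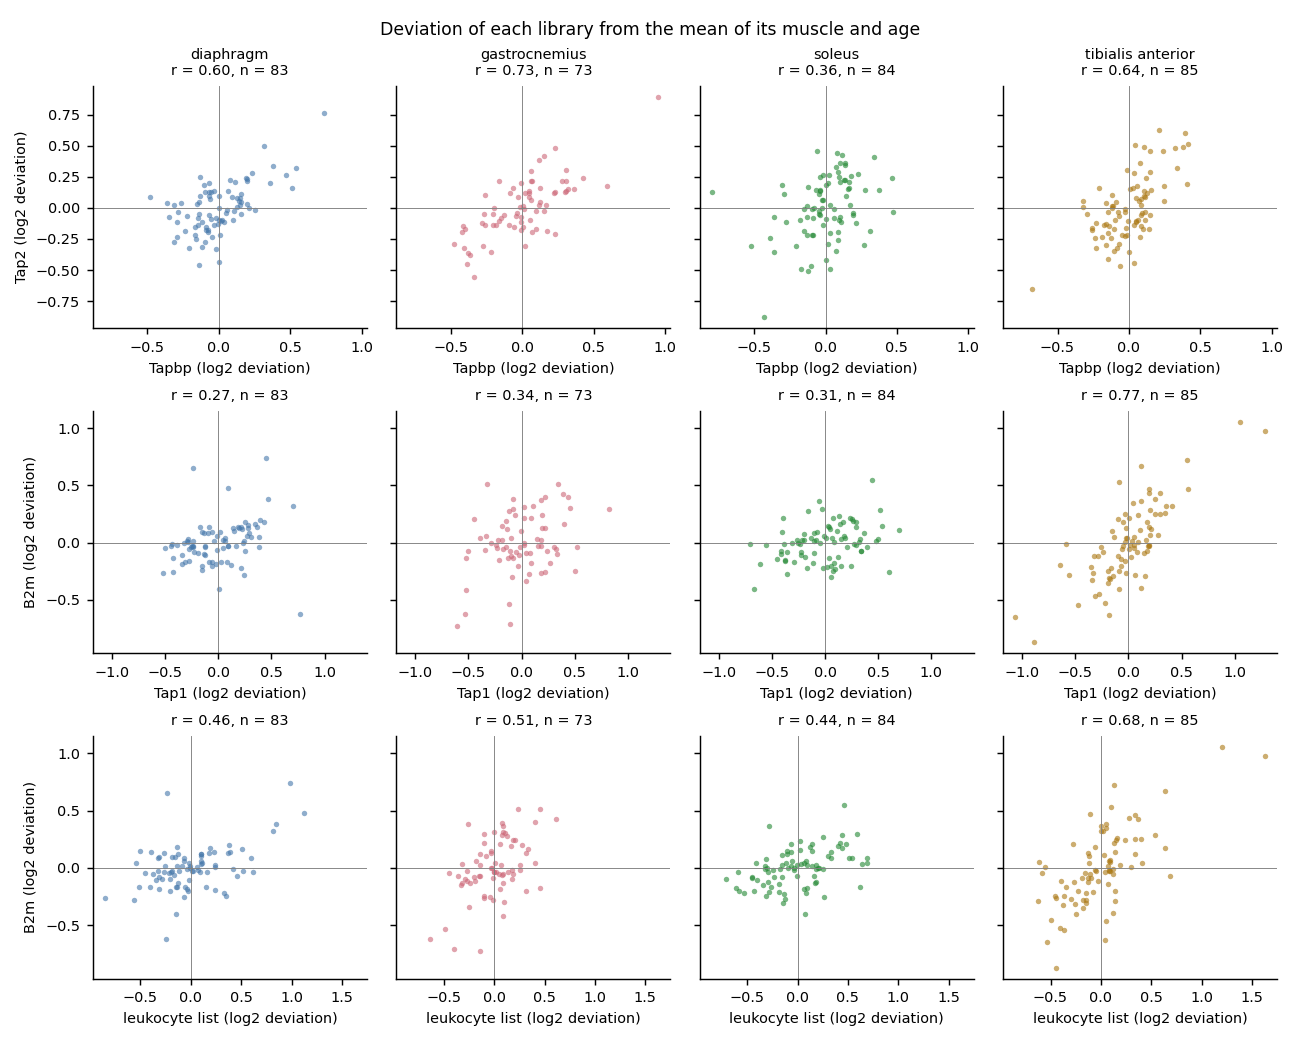
Log2 deviation of each library from the mean of its muscle and age, for Tap2 against Tapbp (top), B2m against Tap1 (middle) and B2m against the mean of 4 leukocyte genes (bottom), with Pearson's r and the number of libraries above each panel. The tightest clouds are Tap2 against Tapbp in the gastrocnemius (r = 0.73) and B2m against Tap1 in the tibialis anterior (r = 0.77).

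Marker genes of leukocytes moved with B2m, and with Tap1 most closely in the tibialis anterior. The 4 genes of all leukocytes (Ptprc, Coro1a, Laptm5 and Cd53) had all risen at 27 months in the gastrocnemius and tibialis anterior, 2 of 4 in the soleus and 0 in the diaphragm. Over all genes tested 15.1%, 17.2%, 9.21% and 3.27% had risen, in this order of muscles. Their summed level ran from 14.2 to 21.7 CPM at 6 months and from 31.3 to 52.4 at 27 months in the gastrocnemius, and from 11.3 to 19.5 and then 22.8 to 46.6 in the tibialis anterior. It ran from 30.8 to 58.6 and then 44.0 to 73.9 in the soleus, and from 37.6 to 70.3 and then 38.1 to 118 in the diaphragm. All 8 macrophage genes, among them Cd68, Cd163 and C1qa, had risen in the gastrocnemius (summed level 104 to 185 CPM, then 199 to 357) and tibialis anterior (47.0 to 73.9, then 104 to 221). In the soleus 2 of 8 had risen (158 to 254, then 254 to 349) and in the diaphragm 0 of 8 (126 to 214, then 187 to 280). Within ages, the mean of the leukocyte genes correlated with B2m at r = 0.68 in the tibialis anterior, 0.51 in the gastrocnemius, 0.44 for the soleus and 0.46 for the diaphragm, with rho of 0.63, 0.44, 0.48 and 0.34 (adjusted permutation p at most 0.00794 over 20 tests). It correlated with Tap1 at r = 0.69 (rho 0.64) in the tibialis anterior and 0.42 (rho 0.38) in the diaphragm. For Tap1 in the gastrocnemius r was 0.28 (rho 0.23, adjusted permutation p = 0.0331 by r and 0.0767 by rho). In the soleus it was 0.22 (rho 0.28, adjusted permutation p = 0.0831 by r and 0.0254 by rho). In all, 11 of the 20 combinations of member and muscle passed by Pearson's r with the mean of the leukocyte genes. With this mean as a covariate the change of B2m at 27 months was 1.62 in the tibialis anterior, 1.64 in the gastrocnemius, 0.59 for the soleus and 0.25 for the diaphragm, and that of Tap1 was 0.63, 0.66, 0.47 and 0.18 in the same order of muscles, against 1.42, 1.03, 0.56 and 0.24 without it. B2m and Tap1 were still called in the tibialis anterior and gastrocnemius, and the change of Tap2 in the tibialis anterior was 0.31 and no longer past 1.5-fold.

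Other cell markers were counted in the same way. T cell genes, which include Cd2 and Lck, had risen in 3 of the 3 genes tested in the tibialis anterior (summed level of all 7 genes 0.351 to 1.29 CPM, then 0.940 to 3.77), 2 of 3 in the gastrocnemius (0.571 to 1.44, then 1.09 to 4.06), 2 of 4 for the soleus (0.888 to 2.33, then 1.44 to 5.97) and 3 of 6 for the diaphragm (1.57 to 4.51, then 2.69 to 8.69). Of 4 dendritic cell genes 3 had risen in the gastrocnemius (4.01 to 6.46, then 6.45 to 9.04) and 3 in the tibialis anterior (3.18 to 5.56, then 4.64 to 8.98), and 0 in the soleus (6.31 to 10.1, then 6.24 to 12.6) and diaphragm (9.71 to 16.5, then 9.66 to 19.4). The 4 B cell genes at hand were tested in the diaphragm alone, where 0 had risen and the sum ran from 0.141 to 2.63 CPM at 6 months and from 0.146 to 8.48 at 27 months, and their sums stayed under 0.421 CPM in the 6- and 27-month libraries of the other muscles. Endothelial genes had fallen in 1 of 5 (Kdr) in each hindlimb muscle and in 0 of 5 in the diaphragm, and their summed medians went from 377 to 263 CPM in the gastrocnemius, 434 to 351 in the tibialis anterior, 452 to 363 in the soleus and 602 to 504 in the diaphragm. Muscle fibre genes, the check on the labelled tissue, summed to 42900 CPM or more in each library of 6 and 27 months, of which Ckm and Myh4 fell in the gastrocnemius, Ckm, Myh4 and Myh7 fell in the tibialis anterior, 3 rose in the soleus and 1 in the diaphragm. The median of the sum went from 211000 to 150000 in the gastrocnemius, from 224000 to 140000 in the tibialis anterior, from 96100 to 73800 in the soleus and from 107000 to 113000 in the diaphragm. Of 10 interferon response genes 6 had risen in the gastrocnemius, 5 in the tibialis anterior and 4 in the soleus, while 1 had fallen in the tibialis anterior and 1 in the diaphragm (Ifit2 in both). No gene of these lists was at 0 in all 6- and 27-month libraries of a muscle. Beyond the leukocyte covariate, the part of these cells in the changes was not tested.

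The rest of the class I pathway was described from lists of genes with known roles. The share of all genes that had risen, to set beside each list, was 17.2% in the tibialis anterior and 15.1% in the gastrocnemius. It was 9.21% in the soleus and 3.27% in the diaphragm. The heavy chains, which pair with the product of B2m and hold the peptide, stood out. Of 38 heavy chain symbols 12 of the 20 tested had risen in the tibialis anterior, 12 of 23 in the gastrocnemius, 11 of 21 for the soleus and 3 of 20 for the diaphragm, and 0 had fallen. Their median log2 change was 1.32, 0.92, 0.97 and 0.10 in the same order, against 0.02, 0.04, 0.02 and 0.00 over all genes. Their summed level went from a median of 91.2 to 191 CPM in the tibialis anterior, 111 to 238 in the gastrocnemius, 82.9 to 127 for the soleus and 112 to 123 for the diaphragm. RT1-A3, a symbol at the low level of 0.132 to 0.547 CPM at 6 months, rose by 3.18 in the gastrocnemius, 3.10 in the soleus, 2.54 in the tibialis anterior and 1.19 in the diaphragm. RT1-A1 rose by 2.15 in the tibialis anterior (1.42 to 6.22 CPM, adjusted p = 1.3e-13), 1.80 in the gastrocnemius (3.42 to 13.2 CPM, adjusted p = 1.6e-12) and 0.94 in the soleus (1.48 to 2.79 CPM, adjusted p = 0.00625), and its difference in the diaphragm was 0.44 (adjusted p = 0.0733). RT1-A2 and RT1-S3 were named after their values were seen. RT1-A2 rose by 2.07 in the tibialis anterior (17.8 to 71.7 CPM, adjusted p = 4.5e-12), 1.70 in the gastrocnemius (23.8 to 79.9 CPM, adjusted p = 5.2e-10) and 1.09 in the soleus (18.4 to 36.8 CPM, adjusted p = 3.7e-06), and its difference in the diaphragm was 0.37 (adjusted p = 0.121). RT1-S3 was higher by 0.41 to 0.45 in the hindlimb muscles, short of 1.5-fold. These genes are near-identical copies of each other and reads may be shared out among them, so the single symbols are uncertain.

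The immunoproteasome swaps 3 subunits of the proteasome for Psmb8, Psmb9 and Psmb10 and is known for peptides that suit class I molecules. Psmb8 rose by 1.38 in the tibialis anterior (1.66 to 4.24 CPM, adjusted p = 7.0e-12) and by 1.11 in the gastrocnemius (2.31 to 4.72 CPM, adjusted p = 1.7e-08), and Psmb9 by 1.12 and 1.00. Psmb10 rose in the soleus (0.73, adjusted p = 2.0e-06) and its difference was 0.25 in the tibialis anterior and 0.18 in the gastrocnemius. The activator subunits Psme1 and Psme2 passed 1.5-fold in no muscle. In all, 2 of 5 genes of this list had risen in the tibialis anterior and gastrocnemius, 1 in the soleus and 0 in the diaphragm, with median changes of 0.49, 0.18, 0.46 and 0.28. Of the 5 constitutive counterparts (Psmb5, Psmb6, Psmb7, Psme3 and Psme4) 0 had changed past the threshold in any muscle, with medians from 0.01 to 0.15, the widest difference being -0.43 for Psme4 in the tibialis anterior. In peptide loading and quality control 1 of 6 genes had risen, Tapbpl, a relative of tapasin, in the tibialis anterior (0.62, adjusted p = 9.4e-06), and it was 0.58, 0.36 and 0.32 higher in the gastrocnemius, soleus and diaphragm. Of 6 other peptidases 0 had changed in any muscle, with medians from -0.08 to 0.15, the widest difference being -0.45 for Tpp2, a cytosolic peptidase, in the diaphragm.

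Among the class I-like chains that also pair with the product of B2m, Mr1, which presents vitamin B metabolites, rose in the tibialis anterior (0.88, adjusted p = 0.00301), gastrocnemius (0.74, adjusted p = 0.00161) and soleus (0.66, adjusted p = 3.8e-04). Cd1d1, a lipid presenter, rose in the diaphragm (1.24, SE 0.39, adjusted p = 0.00731), and its SE was 0.35 or more in the other muscles. Thus 1 of 4 had risen in each muscle. Of 18 genes that control class I genes 17 were measured. Of these, 2 had risen, Jak2, a kinase of cytokine receptors, in the soleus (0.76, adjusted p = 1.1e-12) and Ciita, best known as the transactivator of class II genes, in the tibialis anterior (1.47, adjusted p = 1.8e-09). Nfyb, a subunit of a CCAAT box binding factor, fell in the tibialis anterior (-0.72, adjusted p = 7.0e-16), where 10.4% of all genes fell. Irf1, which carries interferon signals, passed 1.5-fold in no muscle and differed by 0.52 in the tibialis anterior, 0.41 in the soleus, 0.37 in the gastrocnemius and 0.17 in the diaphragm.

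**Figure D5:**
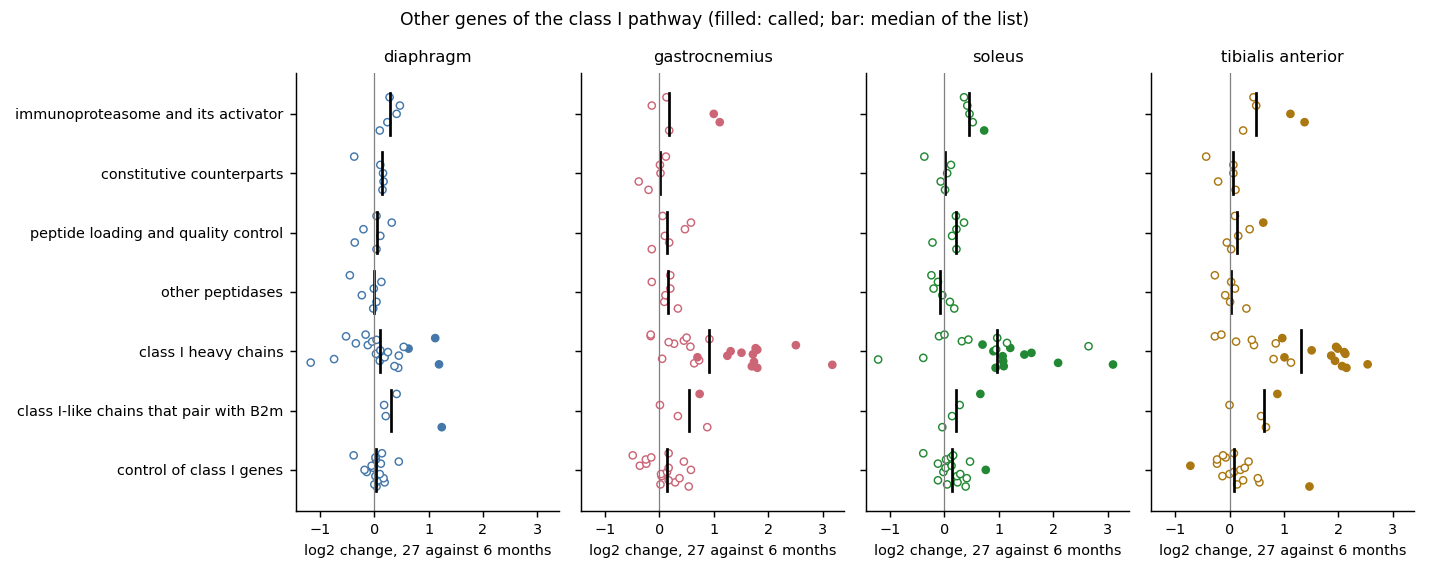
Log2 change from 6 to 27 months of each gene tested in the other lists of the class I pathway (1 point a gene), with 1 panel for each muscle, filled points for genes past 1.5-fold and an adjusted p under 0.05, and a bar at the list median. Heavy chains reach a median of 1.32 in the tibialis anterior and 0.10 in the diaphragm, while the constitutive counterparts stay between 0.01 and 0.15.

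Over the means of the 28 groups of muscle and age, 11517 genes were ranked by the likeness of their log2 CPM to each member. Likest to B2m were Tec, a tyrosine kinase (r = 0.968), Litaf (r = 0.966) and Chrnd, an acetylcholine receptor subunit (r = 0.961), and the r of B2m with Tap1 was 0.841. Likest to Tap1 were Dok3 (0.944), Fam110a (0.937) and Gadd45a (0.935), and likest to Tap2 were Htra2 (0.949), Snd1 (0.931) and Sf3b3 (0.93). Tapbp had Acacb (0.869), Tep1 (0.854) and S100a9 (0.837), and Erap1 had Zbtb11 (0.928) and Gimap9 (0.927). Across the groups B2m had an r of 0.077 with Tap2, 0.218 with Tapbp and -0.423 with Erap1. All groups share 1 scaling and the groups of a muscle share its cell makeup, so these r values are descriptions.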

How the data were processed

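Total RNA of whole muscles, depleted of ribosomal RNA, was sequenced with a strand-specific protocol. The authors deposited raw counts per gene for each library, made with ArrayStudio (version not given in the sources used here) on the older rat B6.0 reference with an in-house gene model based on RefSeq. Groups came from the labels. The members and the other gene lists were chosen with earlier results of these data known. The named genes were the members, the listed genes of the class I pathway with the widest changes, and the 3 genes most like each member over the group means. Some named genes are not reported here.

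Lines of 1 symbol were summed. Within each muscle, genes passed filterByExpr of edgeR 4.0.16 (minimum count 10, minimum total 15), were scaled by the trimmed mean of M values and fitted over all 7 ages with voom of limma 3.58.1 in R 4.3.3, each age against 6 months, two-sided, with Benjamini-Hochberg adjustment. Differences between muscles came from 1 such fit over all 28 groups. Edges of 95% intervals are 1.96 SE. Statistics were tested on simulated data. Alternatives were the relative log expression scaling of edgeR, total counts, no filter, Bonferroni adjustment, a 2-fold threshold, the quasi-likelihood test of edgeR and DESeq2 1.42.0. Further ones were sample quality weights, a replicate block, a leukocyte covariate, each library left out in turn and no libraries of the third running-number series. That series holds the 12-month libraries of the diaphragm, soleus and tibialis anterior and single libraries of 21 months.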

Additional observations from a re-analysis of the deposited data

Results flagged for a closer look

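The change from 6 to 27 months differed between muscles for B2m and Tap1 by the interaction test (limma-voom, Benjamini-Hochberg). For B2m the log2 differences were 1.86 for gastrocnemius minus diaphragm, 2.05 for tibialis anterior minus diaphragm, -1.52 for soleus minus gastrocnemius and 1.71 for tibialis anterior minus soleus. For Tap1 they were 0.73 for gastrocnemius minus diaphragm, 1.14 for tibialis anterior minus diaphragm and 0.88 for tibialis anterior minus soleus. The gastrocnemius libraries have a running-number series of their own, and the pairs with that muscle cannot be told apart from it, while the tibialis anterior, soleus and diaphragm share theirs.

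One library stood far from its group. Replicate 8 of the 21-month gastrocnemius had 49.3 CPM of Erap1, as scaled over all libraries. In log2 CPM scaled within the muscle it had 5.41 and the nearest of the other libraries had 5.69. The gap was 0.652 of the whole range of the 9 libraries. Of the 15 combinations of member and group small enough for this check it was the only one found, and chance alone finds about 1 in 20.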

How the results depend on the processing

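Of the changes at 27 months, 223 of the values under alternatives kept their direction and side of the threshold, as did 254 of the differences in change and 243 of the differences at 6 months. With each library left out in turn, 464 values kept theirs and 1 passed the threshold, Tap1 in the soleus, so that the members called there ranged from 1 to 2 (2 without 27-month replicate 9). The cause was not tested for any of the values below.

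Counts of members moved as follows. In the soleus at 27 months the count was 0 at a 2-fold threshold, 3 with total counts and 2 with sample quality weights. In the tibialis anterior at 27 months, where the main count was 3, it was 2 with the leukocyte covariate. Tap2 was no longer a call there at a 2-fold threshold, and Tapbp became one with total counts (0.78). Over 9 to 24 months the count was 2 in the gastrocnemius at a 2-fold threshold and 2 with the leukocyte covariate, and 3 and 2 in the tibialis anterior. For differing changes, gastrocnemius minus diaphragm had 1 with Bonferroni adjustment, a 2-fold threshold or the leukocyte covariate, soleus minus gastrocnemius 2 with total counts, tibialis anterior minus gastrocnemius 1 with total counts, and tibialis anterior minus soleus 1 at a 2-fold threshold or with the leukocyte covariate. Tap2 also became a call for tibialis anterior minus diaphragm with total counts (0.81). At 6 months, gastrocnemius minus diaphragm had 0 at a 2-fold threshold and 2 with total counts, tibialis anterior minus diaphragm 4 with total counts and 0 with the leukocyte covariate, soleus minus gastrocnemius 1 at a 2-fold threshold and 1 with total counts, and tibialis anterior minus soleus 2 with total counts. With the leukocyte covariate Tap2 (0.71) took the place of B2m (-0.33) as the call for gastrocnemius minus diaphragm.

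Signs turned in small differences. At 27 months Tap2 was -0.05 in the diaphragm and -0.01 in the gastrocnemius over libraries with equal Tap2 lines, and -0.01 in the gastrocnemius with the leukocyte covariate, while Erap1 was 0.12 in the gastrocnemius and 0.04 in the tibialis anterior with total counts. For differences in change with total counts, gastrocnemius minus diaphragm was 0.22 for Tap2 and 0.14 for Tapbp, soleus minus diaphragm 0.12 for Tapbp, soleus minus gastrocnemius -0.02 for Tapbp and -0.13 for Erap1, and tibialis anterior minus soleus 0.05 for Erap1. With the leukocyte covariate tibialis anterior minus diaphragm was -0.0 for Erap1. At 6 months with the leukocyte covariate, Tap1 was 0.39 for gastrocnemius, 0.02 for soleus and 0.27 for tibialis anterior minus diaphragm, -0.36 for soleus minus gastrocnemius and 0.25 for tibialis anterior minus soleus, and Tapbp was 0.15 for gastrocnemius and 0.04 for tibialis anterior minus diaphragm. Tap1 for soleus minus diaphragm was 0.03 with sample quality weights. Tap2 for tibialis anterior minus diaphragm was -0.03 with relative log expression scaling, -0.03 with the quasi-likelihood test of edgeR and -0.43 with total counts. With total counts Tapbp was also 0.13 for soleus minus gastrocnemius, and tibialis anterior minus soleus was -0.08 for Tap2, -0.30 for Tapbp and -0.27 for Erap1.

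Same-numbered libraries were not treated as paired, since the labels do not tie them to an animal. The main p-values between muscles therefore take these libraries as independent. In no comparison did every pair correlate over 0.1, a bar that libraries of 1 animal could also miss. The deviations of same-numbered libraries correlated over 0.1 in 11 of 46 pairs of ages within a muscle. Between muscles it was 17 of 63 pairs with the gastrocnemius, where 4 libraries correlated best with their own number, and 57 of 72 among the other muscles, where 39 did, which is a hint of pairing from the data and not from the design. Within a muscle the replicate block joined libraries of different ages that share a number, so it cannot show whether muscles were paired. With it the members called at 27 months were 3 in the tibialis anterior, 2 in the gastrocnemius, 1 for the soleus and 0 for the diaphragm, as without it. In the fit over all muscles the block joined libraries of 1 age and number. There the members whose change differed numbered 2 for tibialis anterior and diaphragm, 2 for tibialis anterior and soleus and 0 for soleus and diaphragm, as without it. Tap2 turned to 0.01 for the change of gastrocnemius minus diaphragm and to -0.01 for the 6-month level of tibialis anterior minus diaphragm.

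Scaling and covariate bore on all genes. With total counts the calls at 27 months that were higher made up 90.0% in the gastrocnemius against 66.0%, 77.7% in the soleus against 61.4%, 89.1% in the tibialis anterior against 62.4% and 51.0% in the diaphragm against 43.4%, and the median of all genes moved to 0.32, 0.16, 0.34 and 0.04. With the leukocyte covariate 1108 genes were called in the gastrocnemius against 2708 and 1730 in the tibialis anterior against 3245, and Bonferroni adjustment left 538 against 905 in the diaphragm, 1083 against 1825 in the soleus. Tap1, Tap2 and Tapbp rest on 50 to 1486 counts a library.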
